A study of Homo sapiens with 6 samples.

Results

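Of the 939 library wells of a kinome and GPCR siRNA screen, 10 held siRNA against a subunit of phosphoinositide 3-kinase (PI3K), and these wells are described here. They were found by the Entrez identifier of 12 subunit genes. PIK3CD, the p110δ catalytic subunit, and PIK3C3, the class III catalytic subunit, were not analysed here. The cells were SUM149PT, a cell line established from a triple-negative inflammatory breast carcinoma, transfected in reverse with siRNA at 45 nM, 750 cells per condition. After 48 hours the EPA group (n = 3) received 50 µM eicosapentaenoic acid, a polyunsaturated fatty acid, for 72 hours, and the untreated group (n = 3) was the comparison, also transfected with the same siRNAs. Resazurin, a dye that turns fluorescent when living cells reduce it, gave 1 fluorescence value per well and sample. The series was made to find drug targets that complement EPA in these cells. The deposited columns are EPA replicates 4 to 6 and untreated replicates 1 to 3, and the values of each group are listed by replicate number. Whether the samples of a group were separate cultures is not stated in the labels, and the p-values then cover only their spread, which may be technical.

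PI3Ks phosphorylate the 3 position of the inositol ring of membrane phosphoinositides. Class I enzymes pair a p110 catalytic subunit with a regulatory subunit, act below receptor tyrosine kinases and G protein-coupled receptors, and make the lipid that recruits AKT; PIK3CA is among the genes most often mutated in breast cancer. Class II enzymes work without such a regulatory partner and serve endocytosis and membrane traffic. Class III, VPS34 with its partner VPS15, makes the phosphoinositide used in endosome sorting and autophagy. The fluorescence of a well follows the number and the metabolism of its living cells together and cannot tell these apart. Levels of the targeted transcripts or proteins were not part of the table, so the knockdown itself was not measured here. The sources used here do not give the siRNA sequences or say whether a well held 1 siRNA or a pool.

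All 10 wells lay on plate 2, 7 of them in plate row 14 and 3 in row 16, the last row. On that plate the median well of OTP3, the negative control siRNA, read 22269.7 ± 4185 units with EPA and 52575 ± 1487 untreated (SD, n = 3 each), which left 42.4% ± 4.65 (SE) of it with EPA. The median library well kept 60.7% ± 7.23, the other 13 library wells of row 14 kept 46.6% ± 6.61 and the other 17 of row 16 kept 77.9% ± 7.26. EPA took away less signal in row 16 than in row 14. Wells of cells alone, 2 in each row, differed in the same way, with 79.4% ± 2.16 left in row 16 and 44.2% ± 2.36 in row 14. Blank wells read 3936.5 ± 34.7 with EPA and 3739 ± 123 untreated, and TOX, the positive control siRNA, read 4058 ± 399 with EPA and 4542.5 ± 208 untreated. In the tests below each value is log2 fluorescence relative to the median library well of the same plate and sample. Limma's moderated test with Benjamini-Hochberg adjustment over all 939 wells called a difference at an adjusted p under 0.05.

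With EPA set against untreated, 6 of the 10 PI3K siRNAs were higher relative to the library and 0 were lower. The 6 were PIK3CA, PIK3CB, PIK3CG, PIK3R1, PIK3C2A and PIK3R4. At an unadjusted p under 0.05 there were 7 higher and 0 lower. Of all library siRNAs 29.0% were called higher and 15.2% lower. For the same 6, all EPA values lay above all untreated values on this scale, as for 36.0% of the library, and for 0 of the 10 they all lay below, as for 18.8%. The median PI3K siRNA stood at 0.46 and the median library siRNA at 0.20 on the log2 scale of this difference. Among the 10, PIK3CG passed under all 16 alternative settings, while 5 of the 6 calls did not survive median polish of plate rows and columns, which left 1 higher. Over the whole library of 939, the count called higher fell from 272 to 153 with the same correction. Members fill 7 of the 20 library wells of row 14 and 3 of the 20 of row 16. The row levels that median polish takes away thus rest in part on the members. What part this had in the lost PI3K calls was not tested.

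Class I catalytic subunits were called higher in 3 of 3 wells. PIK3CG encodes p110γ, the form controlled by G protein βγ subunits and best known in leukocytes. Its wells read 31582, 27853 and 23641 units with EPA, against 20889, 21547 and 23876 untreated. The mean with EPA, 27692 ± 3973, was 125% ± 11.6 (SE) of the untreated mean of 22104 ± 1569 (SD, n = 3 each). The lowest EPA sample lay just below the highest untreated one in raw units, and the exact permutation test of the raw values gave p = 0.2 (two-sided; 3 against 3 cannot go below 0.1). Relative to the library the groups did not overlap. PIK3CG stood at 0.90 with EPA (adjusted p = 1.97e-05) and at -0.15 untreated (adjusted p = 0.207), a difference of 1.05 (SE 0.145, 95% interval 0.73 to 1.38, adjusted p = 0.000766). Only 6 of the 939 library siRNAs had a larger difference. Its 8 neighbouring library wells had a median difference of 0.03, with a range of -0.93 to 0.80. After median polish the levels were 0.33 with EPA and -0.35 untreated, the second now called lower (adjusted p = 0.00861). The difference was 0.68 after median polish and 1.31 after blank subtraction, and its adjusted p ranged up to 0.0136 over the 16 alternatives.

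PIK3CA encodes p110α, the catalytic subunit that most receptor tyrosine kinases use. The PIK3CA siRNA left a signal above the library median in both groups. Its wells read 33422, 25977 and 28953 units with EPA, against 40001, 33483 and 32544 untreated, and 83.3% ± 8.25 (SE) of the signal was left. In log2 units it stood at 0.99 with EPA (adjusted p = 4.91e-06) and at 0.52 untreated (adjusted p = 0.000599). The difference of 0.47 (SE 0.131, adjusted p = 0.0159) passed under 9 of 16 alternatives, whose adjusted p reached 0.348, and not after median polish (0.40). PIK3CB encodes p110β, which both receptor tyrosine kinases and G protein-coupled receptors can engage. Its 3 untreated wells were close together at 22283, 22207 and 22304 units, and with EPA they read 18375, 22578 and 18919, so the raw groups overlapped. PIK3CB stood at 0.43 with EPA and at -0.14 untreated. The difference of 0.57 (SE 0.191, adjusted p = 0.0352) passed under 8 of 16 alternatives, whose adjusted p reached 0.164, and not after median polish (0.38). Without EPA replicate 5 or 6, or without any 1 of the untreated replicates, PIK3CB no longer passed (0.44 to 0.61). For PIK3CA the call was lost without EPA replicate 6 (0.37) and without untreated replicate 3 (0.43).

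The class I catalytic siRNAs shared row 14, and their wells were set against each other as the log2 ratio of 2 wells in each sample. They lay in columns 17, 19 and 21, and the ratio does not take out a difference between columns. Median polish moved their levels with EPA from 0.99 to 0.90 (PIK3CA), 0.43 to 0.61 (PIK3CB) and 0.90 to 0.33 (PIK3CG). The ratio of PIK3CA to PIK3CG averaged 0.09 ± 0.197 with EPA and 0.67 ± 0.247 untreated, and that of PIK3CB to PIK3CG averaged -0.47 ± 0.271 with EPA and 0.01 ± 0.0994 untreated (SD, n = 3 each). In both pairs the 3 EPA samples lay below the 3 untreated samples (exact permutation p = 0.1, and 0.18 adjusted over the 9 pairs compared within classes). The ratio of PIK3CA to PIK3CB averaged 0.56 ± 0.334 with EPA and 0.66 ± 0.161 untreated, and the samples overlapped (exact permutation p = 0.9). No pair can pass the threshold with 3 samples a group.

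Class I regulatory subunits, which hold p110 stable and bring it to phosphorylated receptors, were called higher in 1 of 3 wells. PIK3R1 encodes p85α and its shorter forms. Its wells read 32486, 22478 and 23010 units with EPA, against 30300, 27772 and 26731 untreated, with the first EPA sample the highest of all 6. PIK3R1 stood at 0.80 with EPA (adjusted p = 1.72e-05) and at 0.20 untreated (adjusted p = 0.0645). The difference was 0.59 (SE 0.126, adjusted p = 0.00476) and passed under 14 of 16 alternatives. The 2 exceptions were median polish (0.33) and median polish with blank subtraction (0.36), and the adjusted p reached 0.176. The 8 library wells around it had a median difference of 0.61, so PIK3R1 lay at the level of its neighbours.

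PIK3R2 encodes p85β. It read 18646, 20782 and 22366 units with EPA and 26727, 23787 and 20721 untreated, overlapping between the groups. Its difference of 0.53 (SE 0.203) missed the threshold at an adjusted p of 0.0553, with a 95% interval of 0.08 to 0.98. PIK3R2 passed without EPA replicate 4 (0.75) and with OTP3 centring (1.05). PIK3R3 encodes p55γ, a regulatory subunit without the long N-terminal part of p85. Its wells gave 28467, 18877 and 21042 units with EPA and 39910, 28158 and 33716 untreated. The PIK3R3 difference was 0.15 (SE 0.142, 95% interval -0.16 to 0.47, adjusted p = 0.401). Both wells lay in row 16, where the other 17 library wells had a median difference of 0.44 and 8 of them were called higher. With EPA both siRNAs were called higher than the library median, PIK3R2 at 0.48 and PIK3R3 at 0.61, but after median polish they stood at -0.31 and -0.26. Between the 2 rows, the log2 ratio of PIK3R1 to PIK3R3 averaged 0.19 ± 0.0614 with EPA and -0.25 ± 0.202 untreated, without overlap (SD, n = 3 each; exact permutation p = 0.1, 0.18 adjusted over the 9 pairs). The ratio of PIK3R1 to PIK3R2 averaged 0.32 ± 0.419 with EPA and 0.26 ± 0.0977 untreated, and the samples overlapped. That of PIK3R2 to PIK3R3 averaged -0.13 ± 0.419 with EPA and -0.51 ± 0.237 untreated, also with overlap (exact permutation p = 0.3). The part of the plate row in these levels and the part of the knockdown cannot be told apart with 1 well each.

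The class II siRNAs ranged from near the bottom of the screen to well above its median. PIK3C2A encodes the widely expressed PI3K-C2α, a clathrin-binding enzyme of endocytosis. Under its siRNA the wells read 5745, 4854 and 4753 units with EPA, against 6412, 6695 and 5572 untreated, the lowest of the 10 PI3K siRNAs in every sample. PIK3C2A stood at -1.53 with EPA (adjusted p = 3.78e-07) and at -1.98 untreated (adjusted p = 1.57e-07), rank 29 and rank 12 from the bottom of 939. It was below the library median in 6 of 6 samples, and both levels passed under all 15 alternatives that could give a value. Its 8 neighbouring library wells had medians of -0.09 with EPA and -0.13 untreated.

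The sign of the EPA comparison for PIK3C2A turned on the blank level. Relative to the library the difference was 0.45 (SE 0.140, adjusted p = 0.0259), called higher, with no overlap between groups. With EPA, however, the mean well of 5117 ± 546 was little above the blank wells of its plate. After blank subtraction the difference was -0.16, and -0.30 with median polish too, with adjusted p of 0.749 and 0.551, in a range of up to 0.749 over the alternatives. The share of signal left was 82.2% ± 6.74 (SE) in raw units and 48.1% ± 14.1 after blank subtraction. The PIK3C2A call passed under 6 of 15 alternatives. It was also lost after median polish (0.32), with quantile normalization (0.21) and when centred on the median siRNA (0.24). The same held without EPA replicate 5 (0.45) or 6 (0.39), and without untreated replicate 1 (0.41) or 3 (0.39).

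PIK3C2B encodes PI3K-C2β, a second widely expressed class II enzyme. The PIK3C2B wells read 8945, 6787 and 7615 units with EPA, against 15169, 15808 and 18081 untreated, and the raw groups were far apart (exact permutation p = 0.1). The share of raw signal left, 47.6% ± 4.62 (SE), was the smallest of the 10 and close to the 46.6% of the other library wells in its row. After blank subtraction the share was 30.7% ± 5.25, against 37.7% for those wells. PIK3C2B stood at -0.93 with EPA (adjusted p = 5.65e-05) and at -0.59 untreated (adjusted p = 0.00167). On this scale it was the single PI3K siRNA with a negative difference, -0.34 (SE 0.174, 95% interval -0.73 to 0.04, adjusted p = 0.134). It was called lower under 2 of 16 alternatives, blank subtraction (-0.78, adjusted p = 0.0424) and centring on the median siRNA (-0.55, adjusted p = 0.0343), in a range of adjusted p up to 0.686, and its difference was 0.18 with OTP3 centring. Untreated, its level was -0.20 after median polish and no longer passed (adjusted p = 0.18).

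PIK3C2G encodes PI3K-C2γ, known mainly from liver. Its wells stayed high, at 21403, 27212 and 21154 units with EPA, against 35639, 32229 and 35731 untreated. PIK3C2G was above the library median with EPA (0.65, adjusted p = 0.000949) and untreated (0.49, adjusted p = 0.00596), also after median polish (0.59 and 0.50). The difference was 0.16 (SE 0.180, 95% interval -0.25 to 0.56, adjusted p = 0.503). Within the class the log2 ratio of PIK3C2B to PIK3C2G averaged -1.58 ± 0.383 with EPA and -1.08 ± 0.133 untreated (SD, n = 3 each; exact permutation p = 0.1, 0.18 adjusted over the 9 pairs). After blank subtraction it averaged -2.33 ± 0.605 with EPA and -1.29 ± 0.156 untreated, again without overlap. The ratio of PIK3C2A to PIK3C2B averaged -0.60 ± 0.104 with EPA and -1.39 ± 0.264 untreated (exact permutation p = 0.1), and its samples overlapped after blank subtraction (p = 0.3). The ratio of PIK3C2A to PIK3C2G averaged -2.18 ± 0.296 with EPA and -2.47 ± 0.207 untreated, and its samples overlapped (exact permutation p = 0.3). After blank subtraction its direction turned, to -4.05 ± 0.702 with EPA and -3.62 ± 0.448 untreated, again with overlap (exact permutation p = 0.4).

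Class III was represented by PIK3R4, the gene of VPS15, the regulatory partner of VPS34. This siRNA left the highest signal of the 10 in 5 of 6 samples, 49543, 29332 and 27393 units with EPA and 48273, 37255 and 43324 untreated. In EPA replicate 6 PIK3CA was higher, at 28953. PIK3R4 stood at 1.21 with EPA (adjusted p = 1.49e-06) and at 0.80 untreated (adjusted p = 3.90e-05). After median polish these levels were 0.34 and 0.09, and the untreated one no longer passed (adjusted p = 0.577). The well lay in row 16, where the other library wells had medians of 0.77 with EPA and 0.55 untreated. The difference of 0.41 (SE 0.134, adjusted p = 0.0320) passed under 5 of 15 alternatives, with adjusted p up to 0.988. It was lost after median polish (0.25) and without EPA replicate 4 (0.29), untreated replicate 1 (0.44), 2 (0.36) or 3 (0.44).

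Side by side, the median difference between EPA and untreated was 0.57 over 3 class I catalytic siRNAs, 0.53 over 3 class I regulatory, 0.16 over 3 class II and 0.41 for the single class III siRNA. Counts of siRNAs called higher were 4 of 6 in class I, 1 of 3 in class II and 1 of 1 in class III, against 29.0% of all library siRNAs. After median polish the single call was PIK3CG, where 153 of all 939 library siRNAs were called higher. The class II median was below 0 under 5 alternatives, such as -0.16 after blank subtraction, and the class III value was 0.0033 with quantile normalization. In raw units the share of signal left with EPA was 83.3%, 89.6% and 125% for PIK3CA, PIK3CB and PIK3CG, and 91.9%, 86.7% and 67.2% for PIK3R1, PIK3R2 and PIK3R3. It was 82.2%, 47.6% and 67.3% for PIK3C2A, PIK3C2B and PIK3C2G and 82.5% for PIK3R4, with SEs from 4.62 to 17.6 percentage points over the 10. The siRNAs of a class are not replicates of it, and no test between classes was made. In levels relative to the library median, with EPA 8 of the 10 were called higher and 2 lower, where 36.4% and 37.0% of all library siRNAs were, and the 2 were PIK3C2A and PIK3C2B. Untreated, 4 were called higher and the same 2 lower, where 33.9% and 35.6% of all library siRNAs were. After median polish 2 were higher untreated, PIK3C2G and PIK3CA, and 3 lower, PIK3C2A, PIK3R2 (-0.56) and PIK3CG (-0.35), without PIK3C2B. Without that correction all 6 class I siRNAs were higher with EPA, and 2 of them, PIK3CA and PIK3R3, untreated. After median polish 5 of the 10 were higher and 3 lower with EPA, with PIK3R2 now among the lower. The library shares given for these levels are without median polish, and none is given beside the counts after it. PIK3C2A and PIK3C2B shared row 14 with the class I catalytic wells and PIK3R1, and among these 7 wells the 2 had the lowest levels with EPA and untreated. After median polish this held with EPA and not untreated, where PIK3CG and PIK3R1 (-0.27) lay below PIK3C2B (-0.20).

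Against OTP3 of the same plate the knockdowns read differently. Untreated, all 10 PI3K siRNAs lay below OTP3, from 11.9% ± 1.43 of its median under PIK3C2A to 81.6% ± 9.52 under PIK3R4. PIK3CA was at 67.3% ± 8.07, PIK3CG at 42.0% ± 2.23 and PIK3CB at 42.4% ± 1.11 (SD, n = 3). In limma's test with OTP3 centring all 10 were called lower untreated, as were 91.8% of all library siRNAs. With EPA the range ran from 23.2% ± 2.08 under PIK3C2A and 35.1% ± 1.88 under PIK3C2B to 133% ± 8.46 under PIK3CA and 156% ± 25.6 under PIK3R4. PIK3CG stood at 126% ± 17.5 there. All 3 EPA values lay above all 3 untreated values for 9 of the 10, each with an exact permutation p of 0.1 (0.111 adjusted over the 10), and PIK3C2B was the exception (p = 0.2). After blank subtraction 8 lay above and PIK3C2B lay below, at 21.1% ± 1.52 with EPA and 25.9% ± 2.38 untreated (exact permutation p = 0.1). PIK3C2A then overlapped, at 6.53% ± 1.53 with EPA and 5.26% ± 1.42 untreated (exact permutation p = 0.4). Before blank subtraction the EPA values lay above for 58.7% of all library siRNAs, so a larger share of OTP3 with EPA was common in the screen. No library share is given beside the counts after blank subtraction, so whether those counts are unusual cannot be read from them. OTP3 wells stand in odd rows of columns 2 and 4. The 2 wells of row 13 kept 41.7% ± 5.56 (SE) of their signal with EPA while the 2 of row 15 kept 60.7% ± 2.32. With EPA those of row 15 read 32199 ± 1060 units (SD, n = 3), more than every PI3K siRNA but PIK3R4 on average. Against the mean of the OTP3 wells instead of their median, PIK3CA stood at 115% ± 8.29 with EPA and PIK3R4 at 135% ± 30.3. PIK3CG stood at 107% ± 6.86 and PIK3R3 at 88.0% ± 10.5, where the median had given 102% for PIK3R3. Which PI3K siRNAs lay above OTP3 with EPA thus depended on the OTP3 wells and summary used.

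The other kinases of the pathway were counted in the same test. Of 12 kinases below PI3K, measured in 13 wells, 2 were lower and 2 higher with EPA against untreated, with a median of 0.29, where 15.2% and 29.0% of all library siRNAs were called and their median was 0.20. MTOR, the kinase of both mTOR complexes, was at -1.54 (adjusted p = 0.000549) and GSK3B, which AKT inhibits, at -0.71 (adjusted p = 0.00362). PDPK1, the kinase that activates AKT, was at 0.71 (adjusted p = 0.0466) and RPS6KB1, an S6 kinase, at 0.58 (adjusted p = 0.0149). MTOR wells averaged 5337 ± 653 units with EPA, near the blank level, and its difference was -3.09 after blank subtraction. After median polish MTOR (-1.44), GSK3B (-0.998) and PDPK1 (0.65) passed, and RPS6KB1 (0.27) did not. After blank subtraction GSK3B (-0.73) and RPS6KB1 (0.71, adjusted p = 0.0407) passed, and PDPK1 (0.89, adjusted p = 0.0882) did not. Centred on the median siRNA, neither PDPK1 (0.50) nor RPS6KB1 (0.32) passed. With OTP3 centring MTOR (-1.15), PDPK1 (1.23) and RPS6KB1 (0.97) passed, and GSK3B (-0.32, adjusted p = 0.179) did not. The GSK3B well lay in column 24, at the plate edge. Its level was above the library median in both groups, 0.37 with EPA and 1.08 untreated. AKT1 was on 2 wells, with differences of 0.15 and -0.05, neither called (the first was called after median polish, at 0.52), and levels of -1.30 and -0.95 with EPA and -1.46 and -0.90 untreated, all 4 called lower. AKT2 (0.29) was not called in the difference either.

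Of the other phosphoinositide kinases 9 were measured, 1 lower and 4 higher, with a median of 0.30, against the same 15.2% and 29.0% of the library. PI4K2A, a phosphatidylinositol 4-kinase that sat 2 columns from PIK3C2A in row 14, was at -1.85 (adjusted p = 0.000169). Its wells averaged 4211 ± 210 units with EPA, close to the blank wells, and the difference was -4.19 after blank subtraction. PIP5K1A (0.80), PIP4K2A (0.76), PI4KA (0.63) and PIP5KL1 (0.63) were the higher ones. The first 3 of these lay in row 16 with PIK3R2, PIK3R3 and PIK3R4 and did not pass after median polish (0.25, 0.30 and 0.31). Of 5 measured protein kinases related to PI3K by sequence, MTOR and ATM (-0.53, adjusted p = 0.00750) were lower and SMG1 (0.72), whose wells were at the blank level, was higher. ATM did not pass after median polish (-0.37) or with OTP3 centring (-0.15), and its levels were 0.26 with EPA and 0.79 untreated. SMG1 passed neither after median polish (0.22) nor after blank subtraction (adjusted p = 0.137). The ULK family genes ULK1 to ULK4 had 0 calls in either direction in limma's test, also at an unadjusted p under 0.05. Their differences ran from -0.08 (ULK1) to 0.37 (ULK4), with 0.26 for ULK2. ULK4 was called higher after median polish (0.57, adjusted p = 0.0429). Their untreated levels were below the library median for ULK1 (-1.14), ULK2 (-0.75) and ULK3 (-1.56). After median polish they were -0.19, -0.24 and -0.37, and ULK3 alone passed (adjusted p = 0.0183).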

How the data were processed

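The authors deposited 1 table of raw fluorescence intensity per well, per the file headers, read on a plate reader after resazurin incubation, per the labels' protocols. No source used here states a blank subtraction or a normalization. The 6 columns carry a group and a number from 1 to 6 through both groups, so each was assigned to a group only. The table holds 3 plates of 384 wells, with 939 library wells (779 kinome, 160 GPCR). Genes were matched by locus identifier to RefSeq symbols of GRCh38.p14 (933 matched). The 21 wells without siRNA were not used.

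For each well, log2 intensity minus the log2 library median of its plate and sample was taken, without pseudocount or filter. Limma 3.58.1 in R 4.3.3 (trend and robust options) fitted 1 mean per group to all 939 wells. The fit was checked on simulated data with independent noise in each value. No plate row, column or blank effects were simulated, so the check does not cover them. Single values were compared by two-sided exact permutation tests (scipy 1.17.1). Every PI3K member is named, as are the controls; the rule for the pathway lists names members past the threshold in EPA minus untreated and the 2 with the largest moderated statistic. AKT1, AKT2, ULK1 and ULK3 were added after their values were seen. The members, lists and alternatives were chosen with earlier results of these data known. The precision is limited by 3 samples a group and 1 well per siRNA. Alternatives are given in the closing section.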

Additional observations from a re-analysis of the deposited data

How the results depend on the processing

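With EPA set against untreated, the count of PI3K siRNAs called higher was 6. It was 9 with OTP3 centring, where PIK3R2 (1.05), PIK3R3 (0.67) and PIK3C2G (0.68) were added to the 6, 1 after median polish and with blank subtraction and median polish, 3 with quantile normalization, 2 when centred on the median siRNA and 2 at a threshold of 0.01. Leaving out 1 replicate gave 2 to 6, with 2 without untreated replicate 3 and 3 without untreated replicate 1 or EPA replicate 6. The count called lower was 0, and 1 (PIK3C2B) with blank subtraction or when centred on the median siRNA. PIK3C2A turned to -0.16 with blank subtraction and -0.30 with both corrections. PIK3R3 turned to -0.16 after median polish, -0.22 with both corrections, -0.068 with quantile normalization, -0.031 as robust z-scores and -0.053 centred on the median siRNA, and under the last 3 of these PIK3C2G was -0.12, -0.030 and -0.050.

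With EPA, 8 PI3K siRNAs were higher: 3 with OTP3 centring, 5 after median polish, 3 with both corrections and 5 without edge wells, where 3 could not be measured. The low-signal filter removed PIK3C2A and left 1 lower in each group. Untreated, 10 were lower and 0 higher with OTP3 centring, and 2 higher after median polish, alone or with blank subtraction. Under OTP3 centring PIK3CB (-0.15) and PIK3R2 (-0.10) turned negative with EPA, and PIK3C2G (-0.61), PIK3CA (-0.58), PIK3R1 (-0.90), PIK3R3 (-0.65), PIK3R4 (-0.30), MTOR (-1.04) and PI4K2A (-1.05) untreated. Median polish turned PIK3R2 (-0.31) and PIK3R3 (-0.26) with EPA and PIK3R3 (-0.092) untreated, and both corrections gave -0.38, -0.33 and -0.11. Among levels that were not called untreated, PIK3R1 turned to -0.27 and -0.31 and PIK3CB to 0.23 and 0.28 under the same settings.

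The class I catalytic median difference, 0.57, was 1.09 with OTP3 centring, 0.73 with blank subtraction, 0.40 after median polish and 0.36 centred on the median siRNA; class I regulatory, 0.53, was 1.05, 0.69, 0.25 and 0.33, and 0.27 with both corrections. All of class I, 0.55, was 1.07, 0.71, 0.35 and 0.35, and 0.44 with quantile normalization. Class II, 0.16, was 0.68 with OTP3 centring, -0.16 with blank subtraction, -0.30 with both corrections, -0.12 with quantile normalization, -0.030 as robust z-scores and -0.050 centred on the median siRNA. Class III, 0.41, was 0.93, 0.58, 0.0033 with quantile normalization, 0.10 as robust z-scores and 0.21 centred on the median siRNA. Without 1 replicate they ranged from 0.49 to 0.78, 0.36 to 0.58, 0.43 to 0.66, 0.0013 to 0.36 and 0.29 to 0.48. The count of 0 PI3K siRNAs with a smaller percent of OTP3 with EPA was 1 after blank subtraction.

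Over all library siRNAs, 143 were lower and 272 higher in the difference, with 59 and 546 under OTP3 centring. The higher count was 153 after median polish, 129 with both corrections, 173 with quantile normalization, 131 centred on the median siRNA and 135 at 0.01. OTP3 centring gave 607 lower and 127 higher with EPA (347 and 342 otherwise) and 862 lower and 5 higher untreated (334 and 318), where both corrections gave 219 lower. The cause of these shifts was not tested. No paired analysis was possible because the columns carry no replicate number shared by the groups.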

Other observations

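The screen placed 13 catalogue numbers on 2 wells each, none of them a PI3K siRNA, and these give the spread between wells of one reagent, which the replicates of a single well do not hold. For EPA minus untreated the 2 wells differed by a median of 0.37 and at most 0.71 (BDKRB2) on the log2 scale, and the SD of a single well was 0.298, where the median limma SE was 0.165. The calls were the same in 8 of 13 and opposite in 0. For levels relative to the library median the SD of a single well was 0.541 with EPA and 0.445 untreated, where the median SE was 0.117 in both. The 2 wells of each reagent lay on different plates, so plate and position differ along with the well. The PIK3CG difference of 1.05 was larger than any gap between 2 wells of 1 reagent on this scale, and the differences of PIK3CA (0.47), PIK3CB (0.57), PIK3R1 (0.59), PIK3C2A (0.45) and PIK3R4 (0.41) were within the range of these gaps. After median polish, a comparison chosen after seeing the data, the median gap was 0.31 and the PIK3CG difference of 0.68 was no longer larger than every gap. Without median polish, for untreated levels the largest gap was 1.34 (AVPR1A), and the PIK3C2A level of -1.98 lay farther than that from the library median.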
